A study of Bos taurus with 12 samples.

Results

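COL1A1, COL1A2 and COL3A1 encode the main fibrillar collagens of connective tissue, and their transcripts were followed in bovine stromal vascular cells (SVC) that had been given adipogenic media. The 3 genes were taken by identifier from a table of 22372 genes (COL1A1 as ENSBTAG00000013103, COL1A2 as ENSBTAG00000013472 and COL3A1 as ENSBTAG00000021466). All 3 were found, and all 3 passed the filter of at least 5 CPM (reads of the gene scaled to a common library total) in at least 3 libraries, as 9267 genes did. The RefSeq genes used here include the 3 symbols but are tied to none of the identifiers, so the symbols were not checked, and the genes' coordinates and sequences are not given.

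Fibrillar collagens are made by fibroblasts and other stromal cells and form the cable-like fibers that give tissue its tensile strength. The pro-alpha chains of COL1A1 and COL1A2 assemble with each other into type I collagen, whereas the chains of COL3A1 assemble among themselves into type III collagen, which is found with type I in soft and compliant tissues. In fat, collagen surrounds the adipocytes and is made in large part by the progenitor and other stromal cells. Precursor cells that become adipocytes are known to lower fibrillar collagen expression and to build a basement membrane.

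The cells (labelled MSC) were primary SVC isolated from bovine subcutaneous brisket fat, and mRNA was harvested after 12 days of differentiation in serum-free medium. The full medium, rDM, held 10 μg/mL insulin, 5 μM rosiglitazone (an agonist of PPARγ, the transcription factor that drives adipogenesis), 25 nM hydrocortisone (a glucocorticoid) and 17 nM progesterone. rDM 0% Ins lacked insulin, rDM 0% Ros lacked rosiglitazone, and rDM 0% HC/PR lacked hydrocortisone and progesterone, while each kept the other inducers at the same concentrations. Each medium was used on cells of 3 donors (A, B and C), which gave 12 libraries. The donors were Belgian Blue cattle, for which the ages are stated as 2 to 6 years in 1 place and 1 to 7 years in another, and the age of each of the 3 donors is not given in the sources used here. No library of undifferentiated cells was analysed here, so each difference is between media at the same day and not a change over time. SVC are a mixture of cells, and no marker of adipocytes, fibroblasts or other cells could be looked up, since identifiers had no names. In such bulk samples, fewer cells of a type and less RNA per cell cannot be told apart.

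The libraries were read as long reads at a depth of 302754 to 1153853 estimated reads. The deposited CPM values had been corrected by the authors for the 3 batches of mRNA extraction, which coincide with the donors, so the levels below are corrected levels. CPM values are not divided by gene length and are compared here between media and not between genes.

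The order of the mean levels was the same for the 3 genes, lowest in rDM 0% Ins, then rDM, then rDM 0% HC/PR, and highest in rDM 0% Ros. The largest contrast was thus between the medium without rosiglitazone and the medium without insulin, where the ratio of mean levels was 4.12 for COL1A1, 4.82 for COL1A2 and 5.04 for COL3A1. Neighbours in this order differed by less, and none of the neighbouring pairs passed limma's test, with or without a trend in its prior variance, for any of the 3 genes. With 1 prior variance for all genes, as in the main test, limma did not call any of the 18 differences (3 genes in 6 comparisons) after adjustment, although 9 of them had an unadjusted p under 0.05. Between 5.07% (rDM 0% HC/PR against rDM) and 15.9% (rDM 0% Ros against rDM) of all genes tested had such a p in each comparison. limma with trend called 7 of the 18, edgeR 5 and DESeq2 10, and the calls given below come from these tests, which are named. Of the 9267 genes, limma with trend called between 2 and 470 per comparison, edgeR between 3 and 492 and DESeq2 between 19 and 415. DESeq2 gave an adjusted p for only part of these genes, for example 464 in rDM 0% HC/PR against rDM.

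COL1A1, the chain that contributes most to type I collagen, was at 819, 824 and 593 CPM in rDM for donors A, B and C (745 ± 132, mean ± SD, n = 3). Without insulin it was at 828, 268 and 352 CPM (483 ± 302), and without rosiglitazone at 2283, 1267 and 2425 CPM (1992 ± 632). Without HC/PR it was at 1652, 2743 and 1246 CPM (1880.3 ± 774). Every library without rosiglitazone or without HC/PR was thus above every library of rDM and of rDM 0% Ins, whereas the libraries of rDM 0% Ins and rDM overlapped because donor A had the same level in both.

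COL1A2, the partner chain of type I collagen, was at 679, 1483 and 798 CPM in rDM (986 ± 434, n = 3) and at 879, 261 and 549 CPM in rDM 0% Ins (563 ± 309). It was at 2897, 2011 and 3228 CPM in rDM 0% Ros (2712 ± 629) and at 2315, 2530.0 and 1244 CPM in rDM 0% HC/PR (2029.6 ± 689). Only the medium without rosiglitazone kept all its libraries above those of rDM, since the rDM library of donor B was above the rDM 0% HC/PR library of donor C.

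COL3A1, the chain of type III collagen, was at 1335, 1520.4 and 1139 CPM in rDM (1331 ± 191, n = 3). Without insulin it was at 794, 275 and 786 CPM (618 ± 298), without rosiglitazone at 3214, 2344 and 3794 CPM (3117 ± 729.5), and without HC/PR at 2426, 2823 and 812 CPM (2020.2 ± 1065). COL3A1 was the only one of the 3 whose rDM 0% Ins libraries all lay below those of rDM. In rDM 0% HC/PR it was above rDM in donors A and B and below it in donor C. Its SD in this medium was the largest of the 12 groups of 3 libraries in CPM, though not relative to the mean.

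**Figure D1:**
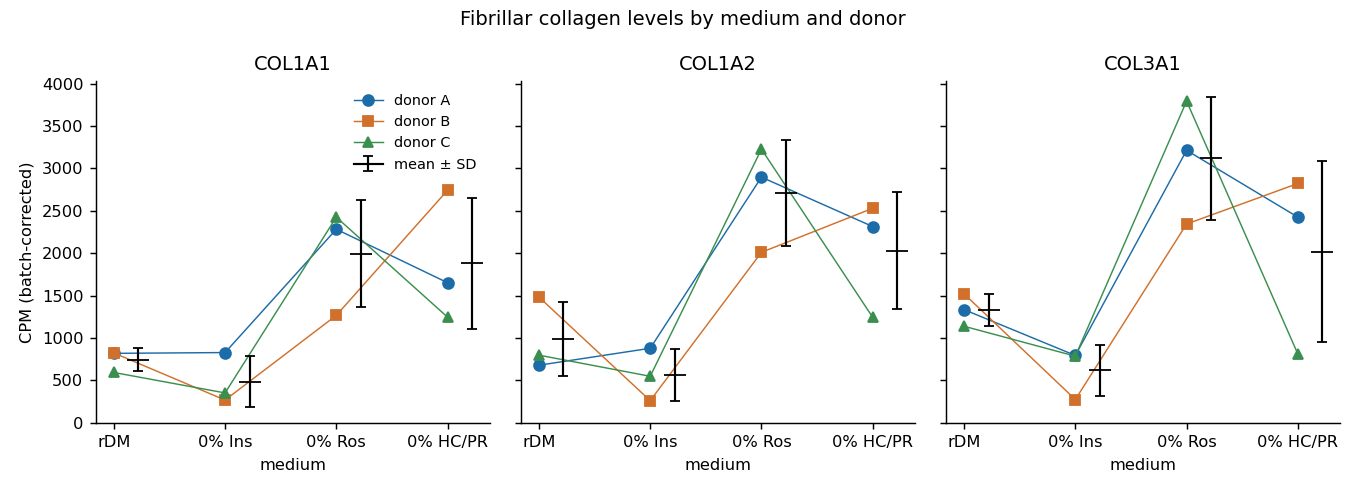
Batch-corrected level (CPM, linear axis) of COL1A1, COL1A2 and COL3A1 in the 4 media, with 1 point per library, lines joining the libraries of a donor, and mean ± SD (n = 3) beside them. The rDM 0% Ros libraries lie above those of rDM and rDM 0% Ins for each gene, and donors cross between rDM 0% Ros and rDM 0% HC/PR.

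Read counts behind these levels were recovered from the batch-corrected values, so they are adjusted counts and not the reads observed. They ranged from 104 (COL1A1 in rDM 0% Ins, donor C) to 1695 (COL3A1 in rDM 0% Ros, donor A) per gene and library. At the lowest of these read counts the exact Poisson 95% interval of the level was 288 to 427 CPM. Such intervals take the adjusted counts as observed reads. They cover no more than counting error, since PCR reads without molecular identifiers are not independent molecules. At the lowest level, that of COL1A2 in rDM 0% Ins of donor B (261 CPM), it was 216 to 313 CPM.

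The mean collagen levels were highest without rosiglitazone, although in donor B the 3 genes were higher without HC/PR, and the difference between these media was not called. Against rDM, the ratio of means in rDM 0% Ros was 2.67 for COL1A1, 2.75 for COL1A2 and 2.34 for COL3A1. The groups did not overlap for any of the 3 genes, and all 3 donors were higher for each gene; of all genes tested, 15.3% were higher without overlap in this comparison. Within donors, COL1A1 was 2.79, 1.54 and 4.09 times as high as in rDM in donors A, B and C, COL1A2 was 4.27, 1.36 and 4.05 times as high, and COL3A1 was 2.41, 1.54 and 3.33 times as high. Donor B showed the smallest ratio for each gene.

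On the log2(CPM + 1) scale, the difference between rDM 0% Ros and rDM was 1.38 (95% interval 0.26 to 2.49) for COL1A1, 1.52 (0.27 to 2.76) for COL1A2 and 1.21 (-0.11 to 2.53) for COL3A1, against a median of 0.10 over all genes tested. limma's adjusted p was 0.213, 0.218 and 0.356. When limma's prior variance followed the expression level (trend), the adjusted p was 0.0429 for COL1A1, 0.0488 for COL1A2 and 0.151 for COL3A1, so that both chains of type I collagen were called, and that fit called 1.8% of genes as higher (the other prior called 0.507%). edgeR gave 0.0526, 0.0749 and 0.127 and called none of them, with 1.97% of genes called higher. DESeq2 gave 0.0108, 0.0154 and 0.06 and called the type I chains, with 2.21% of the genes for which it gave an adjusted p called higher. The type I calls with trend were near the threshold and held in 2 of the 9 fits that left out a library or donor of this comparison, for COL1A1 and for COL1A2.

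The mean collagen levels were lowest without insulin, with a wide spread between donors. In rDM 0% Ins the ratio of means to rDM was 0.648 for COL1A1, 0.571 for COL1A2 and 0.464 for COL3A1. In donor B the levels were 0.325, 0.176 and 0.181 times those in rDM, and in donor C 0.594, 0.688 and 0.69 times. In donor A, by contrast, COL1A1 was at 1.01 and COL1A2 at 1.29 times the rDM level, and COL3A1 at 0.595 times. COL3A1 was lower in all 3 donors and the groups did not overlap, as was so of 8.03% of all genes tested.

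The log2 difference between rDM 0% Ins and rDM was -0.78 (-1.90 to 0.33) for COL1A1, -0.89 (-2.14 to 0.36) for COL1A2 and -1.25 (-2.57 to 0.07) for COL3A1, with limma's adjusted p of 0.598, 0.595 and 0.469 and 0.0108% of genes called lower. Without the rDM 0% Ins library of donor B the differences were -0.42, -0.31 and -0.66, and without all libraries of donor B -0.37, -0.08 and -0.64. The median over all genes was 0.19 in this comparison, and TMM scaling, which moved that median to -0.02, put the 3 genes at -1.02, -1.12 and -1.48, which limma did not call either. DESeq2 called COL3A1 lower (adjusted p = 0.0136), as it did 5.23% of the genes for which it gave an adjusted p (137 of 2620). limma with trend and edgeR did not call any of the 3 genes in this comparison, in which they called 0.852% and 1.22% of genes as lower.

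Without hydrocortisone and progesterone, the type I chains were higher than in rDM in all donors and the type III chain was not; this difference between the chains was not tested. COL1A1 was higher than in rDM in each of the 3 donors, by 2.02, 3.33 and 2.10 times, with no overlap between the groups (7.65% of all genes tested were higher without overlap). COL1A2 was also higher in each donor, by 3.41, 1.71 and 1.56 times, but the groups overlapped. COL3A1 was 1.82, 1.86 and 0.713 times its rDM level, with donor C in the opposite direction.

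The log2 differences against rDM were 1.27 (0.16 to 2.38) for COL1A1, 1.06 (-0.19 to 2.31) for COL1A2 and 0.42 (-0.90 to 1.74) for COL3A1, beside a median over all genes of 0.00. limma's adjusted p was 0.944, 0.985 and 0.999, in a comparison in which it called 0% of all genes as higher and in which 249 genes were higher at an unadjusted p under 0.05. Only DESeq2 called COL1A1 (adjusted p = 0.0223), with 1.72% of the genes for which it gave an adjusted p called higher. Without the donor as a block, DESeq2 gave a difference of 1.29 and did not call COL1A1 (adjusted p = 0.0816). limma with trend and edgeR each called 0.0108% of genes as higher, and the collagens were not among them. The COL3A1 difference was -0.11 when only the rDM 0% HC/PR library of donor B was left out, 0.19 when all libraries of donor B were left out and 0.88 when those of donor C were.

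**Figure D2:**
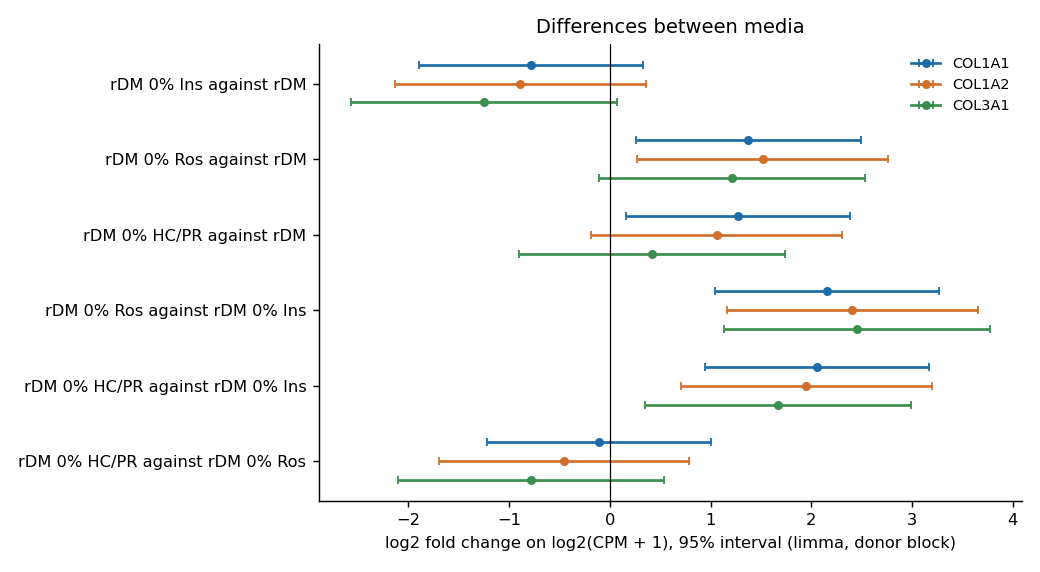
Difference of log2(CPM + 1) between media for COL1A1, COL1A2 and COL3A1, with 95% intervals from limma (12 libraries, donor as a block). The intervals for rDM 0% Ros and rDM 0% HC/PR against rDM 0% Ins lie above 0 for the 3 genes, whereas those for rDM 0% Ins against rDM and rDM 0% HC/PR against rDM 0% Ros cross 0.

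The deprived media were compared with each other to place the inducers side by side. Between rDM 0% Ros and rDM 0% Ins, the log2 difference was 2.16 (1.05 to 3.27) for COL1A1, 2.40 (1.16 to 3.65) for COL1A2 and 2.46 (1.14 to 3.78) for COL3A1, and the groups did not overlap for any of them, which was so of 7.09% of all genes in that direction. All 3 donors were higher for each gene. limma's p before adjustment was 0.00197, 0.00204 and 0.00253, and its adjusted p 0.118, 0.121 and 0.131, in a fit that called 0.14% of genes as higher. With trend the adjusted p was 0.00511, 0.00547 and 0.00732, with edgeR 0.00587, 0.00639 and 0.00439, and with DESeq2 1.08e-06, 4.71e-07 and 8.11e-08, so that the 3 genes rose in each of these tests, with 0.594% and 0.615% of all genes tested called higher by limma with trend and edgeR, and 1.32% of the genes for which DESeq2 gave an adjusted p. With trend the calls were kept for each gene in 8 of the 9 fits that left out a library or donor of this comparison. The exception was leaving out 1 donor, donor C for COL1A1 and COL1A2 (adjusted p = 0.16 and 0.119) and donor A for COL3A1 (0.134).

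Between rDM 0% HC/PR and rDM 0% Ins the groups also did not overlap for any of the 3 genes (6.58% of all genes were higher without overlap), and all 3 donors were higher. For COL3A1 the gap was within counting error. Its rDM 0% HC/PR level in donor C was 812 CPM (Poisson 95% interval 737 to 893). Its rDM 0% Ins levels were 794 CPM in donor A and 786 CPM in donor C. The log2 difference was 2.06 (0.94 to 3.17) for COL1A1, 1.95 (0.70 to 3.19) for COL1A2 and 1.67 (0.35 to 2.99) for COL3A1, with limma's adjusted p of 0.182, 0.241 and 0.331 and 0.0324% of genes called higher. With trend, COL1A1 (adjusted p = 0.0156) and COL1A2 (0.0366) rose and COL3A1 missed the threshold (0.0963), and edgeR gave the same calls (0.0124, 0.0388 and 0.0527), with 0.475% and 0.518% of genes called higher. DESeq2 called all 3 genes, and 2.3% of the genes for which it gave an adjusted p. In the trend fits that left out a library or donor, the calls held in 5 of 9 for COL1A1 and in 1 of 9 for COL1A2. Over these fits the difference ranged from 1.41 to 2.59 for COL1A1, 1.29 to 2.37 for COL1A2 and 0.83 to 2.48 for COL3A1.

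Between rDM 0% HC/PR and rDM 0% Ros the groups overlapped for each gene (9.78% of all genes were lower without overlap), and limma, which called 0.119% of genes as lower, did not call the collagens. The log2 difference was -0.10 (-1.22 to 1.01) for COL1A1, -0.46 (-1.70 to 0.79) for COL1A2 and -0.79 (-2.11 to 0.53) for COL3A1, and donor B was above its rDM 0% Ros level for each gene while donors A and C were below. These intervals allow differences of over 1 log2 unit in the negative direction, so that the media cannot be said to act alike on the collagens. The 6 comparisons share libraries and are not independent of each other.

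Donor and sequencing pool move together in part. The pool was taken from the library number in the names of the deposited data, since the study's text does not assign libraries to flow cells. The libraries of donor A were all in 1 of the 2 pools and those of donor C all in the other, whereas for donor B rDM and rDM 0% Ins were in the first pool and rDM 0% Ros and rDM 0% HC/PR in the second. Within donors A and C, where the pool was the same for all media, the 3 genes were higher in rDM 0% Ros than in rDM and in rDM 0% Ins. With the pool as a further term, the rDM 0% Ros against rDM 0% Ins differences were 2.02 (0.69 to 3.36), 2.34 (0.83 to 3.86) and 2.18 (0.66 to 3.70) for COL1A1, COL1A2 and COL3A1. The rDM 0% Ros against rDM differences were 1.24 (-0.09 to 2.57), 1.45 (-0.06 to 2.97) and 0.93 (-0.59 to 2.45), so that the intervals of the type I chains, which lay above 0 without the term, reached below it. Those of rDM 0% HC/PR against rDM were 1.14 (-0.20 to 2.47), 1.00 (-0.52 to 2.51) and 0.15 (-1.37 to 1.67), and those of rDM 0% HC/PR against rDM 0% Ins 1.92 (0.59 to 3.25), 1.89 (0.37 to 3.40) and 1.40 (-0.12 to 2.92). Of the intervals that lay above 0 without the pool term, those of COL1A1 in rDM 0% HC/PR against rDM and COL3A1 in rDM 0% HC/PR against rDM 0% Ins thus also reached below it.

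The collagens were set against other transcripts of high abundance, where counting error is small. There were 315 genes with a mean of at least 500 CPM, a limit chosen after the levels were known and including the 3 collagens. In rDM 0% Ros against rDM 0% Ins, 3, 1 and 0 of these genes had a larger log2 difference than COL1A1, COL1A2 and COL3A1. In rDM 0% HC/PR against rDM 0% Ins the numbers were 4, 5 and 6, in rDM 0% HC/PR against rDM 5, 6 and 30, and in rDM 0% Ros against rDM 16, 12 and 20. In rDM 0% Ins against rDM, 29, 23 and 13 had a lower difference. The 3 collagens were thus near the upper end of the abundant genes in both contrasts with rDM 0% Ins, as were COL1A1 and COL1A2, but not COL3A1, in rDM 0% HC/PR against rDM. These ranks take no account of the spread between libraries, which was wide for the collagens. Their SD of log2(CPM + 1) after medium and donor was 0.604, 0.699 and 0.751, against a median of 0.227 over the 315 genes. Over all 9267 genes, 176, 119 and 108 were higher in rDM 0% Ros against rDM 0% Ins. The numbers were 171, 204 and 310 in rDM 0% HC/PR against rDM 0% Ins and 479, 668 and 2177 in rDM 0% HC/PR against rDM. In rDM 0% Ros against rDM they were 852, 683 and 1113, and in rDM 0% Ins against rDM 1098, 912 and 514 genes were lower.

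**Figure D3:**
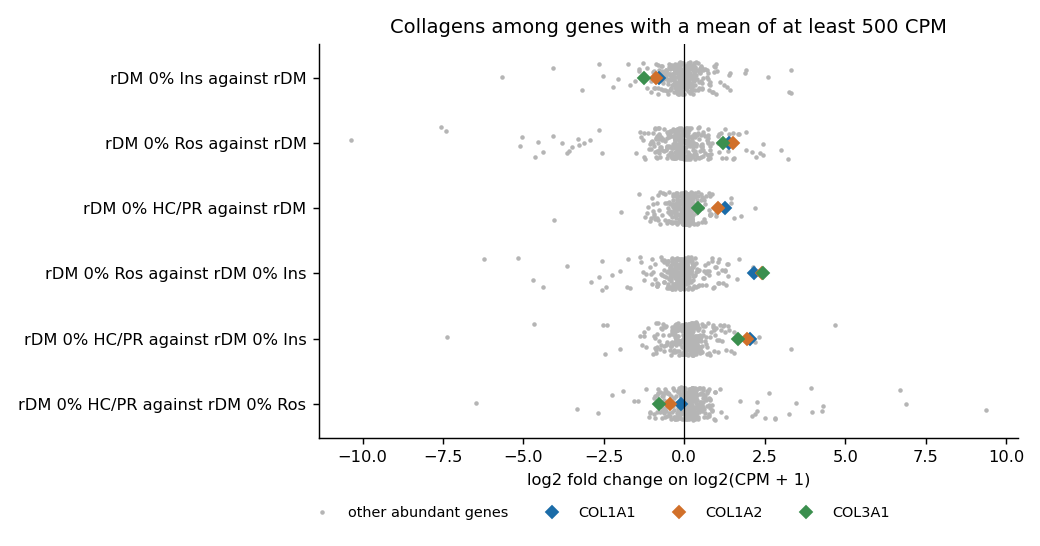
Log2 difference on log2(CPM + 1) of the 315 genes with a mean of at least 500 CPM (grey points) in the 6 comparisons, with the collagens as diamonds. The vertical spread within a comparison is only for legibility. In rDM 0% Ros against rDM 0% Ins the 3 diamonds lie at the right end of the genes.

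Together the 3 genes took 0.306% ± 0.0679 (SD, n = 3) of the library in rDM, 0.166% ± 0.0849 in rDM 0% Ins, 0.782% ± 0.198 in rDM 0% Ros and 0.593% ± 0.243 in rDM 0% HC/PR. By donor (A, B and C) the joint share was 0.283%, 0.383% and 0.253% in rDM and 0.25%, 0.0804% and 0.169% in rDM 0% Ins. It was 0.839%, 0.562% and 0.945% in rDM 0% Ros and 0.639%, 0.81% and 0.33% in rDM 0% HC/PR. Each donor had its lowest share without insulin and its next lowest in rDM. Donors A and C had the highest share without rosiglitazone, and donor B without HC/PR.

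The joint share in rDM 0% Ros was 2.96, 1.47 and 3.73 times that in rDM in donors A, B and C, in rDM 0% HC/PR 2.26, 2.12 and 1.31 times, and in rDM 0% Ins 0.883, 0.21 and 0.667 times. The lowest share, in rDM 0% Ins of donor B, had a Wilson 95% interval of 0.0725% to 0.0891%, and the highest, in rDM 0% Ros of donor C, of 0.914% to 0.976%. These intervals take the batch-adjusted counts as observed reads and cover no more than counting error. No test was run on this sum. After TMM scaling the means were 0.326%, 0.156%, 0.779% and 0.602%, in the same order.

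**Figure D4:**
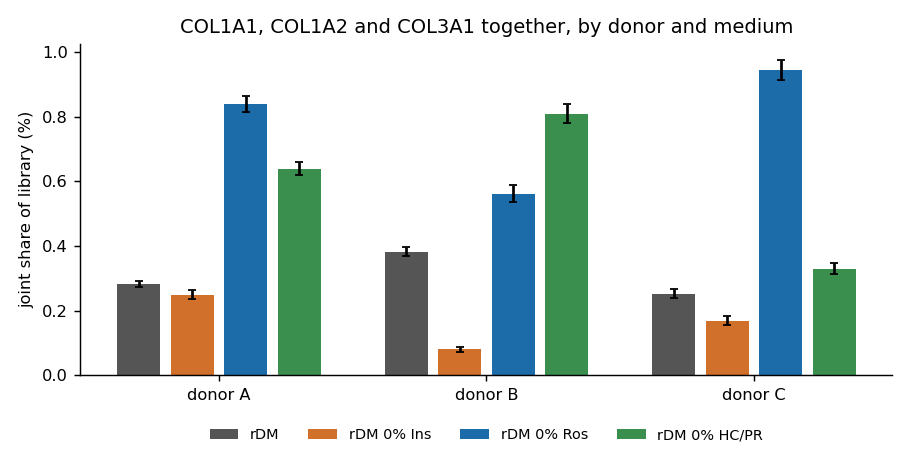
Joint share of COL1A1, COL1A2 and COL3A1 in each library (percent of CPM), by donor and medium. Wilson 95% intervals take batch-adjusted counts as observed reads and cover no more than counting error. The rDM 0% Ins bar is the lowest in each donor, and the rDM 0% Ros bar is the highest in donors A and C.

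The balance between the chains was described by log2 ratios within a library, in which gene length cancels when media are compared. The COL1A1 to COL3A1 ratio was -0.84 ± 0.12 in rDM, -0.38 ± 0.68 in rDM 0% Ins, -0.68 ± 0.20 in rDM 0% Ros and 0.01 ± 0.59 in rDM 0% HC/PR (SD, n = 3). All rDM 0% HC/PR libraries, from -0.55 upward, were above all rDM libraries, which reached -0.70, and the ratio in rDM 0% Ros stayed near that in rDM. The ratio of the type I chains, COL1A1 to COL1A2, was -0.33 ± 0.56 in rDM, -0.23 ± 0.36 in rDM 0% Ins, -0.47 ± 0.17 in rDM 0% Ros and -0.12 ± 0.32 in rDM 0% HC/PR, which are differences within the spread between donors. COL1A2 to COL3A1 was -0.51 ± 0.47, -0.15 ± 0.34, -0.20 ± 0.05 and 0.13 ± 0.42 in the same order, also with overlap. No test was run on these ratios.

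Over the 12 libraries, log2(CPM + 1) of COL1A1 and COL1A2 had a Pearson correlation of 0.949, COL1A2 and COL3A1 of 0.939, and COL1A1 and COL3A1 of 0.886. After the medium and donor means were removed, the correlations were 0.802, 0.846 and 0.714, so that the genes also varied together among the libraries of a medium. These are descriptions, with no test, over libraries that share donors, media and a correction for batch. Of 4132 genes with a mean of at least 20 CPM, between 0 and 6 were more alike to a collagen than another collagen was. The third collagen is included in these numbers where it was the nearer one.

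Among the other 4129 genes, those most alike in pattern to the mean of the collagens were ENSBTAG00000047998 (Pearson r = 0.95 over 12 libraries) and ENSBTAG00000043577 (r = 0.917), and those least alike were ENSBTAG00000011969 (r = -0.928) and ENSBTAG00000010508 (r = -0.917). ENSBTAG00000047998 was at 43.2 ± 5.22 CPM in rDM, 26.8 ± 9.83 in rDM 0% Ins, 130.6 ± 31.7 in rDM 0% Ros and 72.9 ± 36.2 in rDM 0% HC/PR, and ENSBTAG00000043577 was at 429.7 ± 48.7, 329.9 ± 39.9, 635.2 ± 52.4 and 630.5 ± 93.5 CPM. ENSBTAG00000011969, by contrast, was at 304.6 ± 22.8, 409.6 ± 98.1, 221.9 ± 13.4 and 248.7 ± 15.3 CPM, highest where the collagens were lowest. ENSBTAG00000010508 was at 105.2 ± 9.74, 118.8 ± 26.6, 63.7 ± 2.26 and 76.5 ± 7.46 CPM, with the same reversed order. In all, 41 genes had r above 0.8 and 36 below -0.8.

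**Figure D5:**
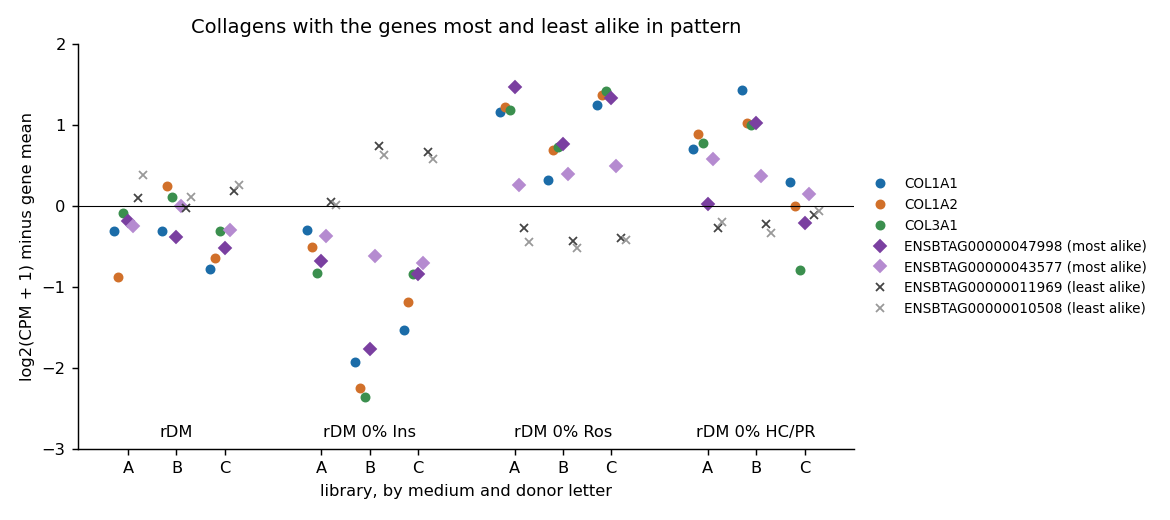
Level of the 3 collagens and of the 2 most and 2 least alike genes in each library, as log2(CPM + 1) minus the gene's own mean over the 12 libraries. The points of the collagens and of the most alike genes are low in rDM 0% Ins and high in rDM 0% Ros, and the crosses of the least alike genes are reversed.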

How the data were processed

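Polyadenylated RNA of 12 SVC cultures was made into PCR-cDNA libraries by the authors and sequenced on 2 Nanopore flow cells (basecalled with Guppy 5.0.16). Reads were mapped with minimap2 to the bovine transcriptome (ARS-UCD1.2) and quantified with Salmon. The 2 pools used here are the library numbers in the names of the deposited data. Estimated counts of reads per transcript were deposited per library without batch correction, and were used only for depth and for the check of pairing. CPM values per gene were deposited in 1 table, made with tximport and corrected by the authors with ComBat-seq for the extraction batch; whether the media entered that correction is not given in the sources used here. Of the values, 100% were whole multiples of the value of 1 read (tolerance 0.001 reads), and the recovered reads were 94.7% to 98.3% of the estimated ones. These recovered reads are counts after batch correction and not the reads observed.

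The 9267 genes that reached 5 CPM in 3 or more libraries were tested with limma 3.58.1 on log2(CPM + 1) over all libraries, with the donor as a block, in R 4.3.3, with Benjamini-Hochberg adjustment within each comparison and a threshold of 0.05. limma with trend, edgeR 4.0.16 and DESeq2 1.42.0 (on recovered reads) were alternatives. A library at 0 would allow up to 2.71 to 10.2 CPM (3 reads). The labels give each replicate as 1 extraction batch, and the study's text gives 3 donors in 3 independent experiments. Deviations of the 18 same-donor pairs of libraries correlated at 0.194 to 0.593 over uncorrected transcripts and at -0.345 to 0.0411 over corrected genes. Likeness between libraries of a donor was thus seen before the batch correction and not after it. The donor block and the ratios within donors rest on the corrected values. The genes were the 3 members, and the 2 most and 2 least alike by Pearson correlation with their mean among tested genes at a mean of at least 20 CPM. The members and rules were chosen with earlier results of these data known. Scripts were tested on simulated data. Marker and pathway lists, named by symbol, were not analysed here, since 0 of 22372 gene identifiers could be paired with RefSeq symbols.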

Additional observations from a re-analysis of the deposited data

How the results depend on the processing

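Values are log2 differences in the order COL1A1, COL1A2, COL3A1. Of the 18 differences between media, 15 kept their direction under each of 13 other settings and in each of 15 fits that left out a library or donor. COL1A1 in rDM 0% HC/PR against rDM 0% Ros turned to 0.0109 with DESeq2 with the replicate block and 0.00946 without it, and ranged from -0.71 to 0.32 when a library or donor was left out. COL1A2 in that comparison ranged from -0.85 to 0.0037, and COL3A1 in rDM 0% HC/PR against rDM from -0.11 to 1.08. No difference was called in the main test, so alternatives could only add calls, and the cause was not tested.

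In rDM 0% Ros against rDM 0% Ins the 3 genes were called with a pseudocount of 10 (2.13, 2.38, 2.44), with at least 10 reads in every library (2.16, 2.40, 2.46), without the replicate block (the same values), with limma trend (the same values), with edgeR (2.22, 2.41, 2.49), with DESeq2 (2.19, 2.37, 2.46) and with DESeq2 without the block (2.06, 2.31, 2.41). Of all genes, 41 of 9267 were called higher there with the pseudocount of 10 and 32 of 2284 with at least 10 reads. Without the block 55 of 9267 were called higher by limma, and 104 by DESeq2. Fits without the block take no account of the donor differences that the batch correction had already removed, so their p-values can be too small. In rDM 0% HC/PR against rDM 0% Ins, COL1A1 was called with a pseudocount of 10 (2.03) and at least 10 reads (2.06), COL1A1 and COL1A2 with trend (2.06, 1.95) and edgeR (2.18, 1.98), and all 3 with DESeq2 (2.20, 2.00, 1.85) and with DESeq2 without the block (2.07, 1.98, 1.85). Of all genes, 36 of 9267 were called higher there with the pseudocount of 10 and 17 of 2284 with at least 10 reads. DESeq2 without the block called 142 genes higher. In rDM 0% Ros against rDM, COL1A1 and COL1A2 were called with trend (1.38, 1.52), DESeq2 (1.31, 1.33) and DESeq2 without the block (1.28, 1.33). The last of these fits called 228 genes higher. DESeq2 also called COL3A1 in rDM 0% Ins against rDM (-1.34, and -1.31 without the block) and COL1A1 in rDM 0% HC/PR against rDM (1.32). Without the block it called 211 genes lower in rDM 0% Ins against rDM. It then no longer called COL1A1 in rDM 0% HC/PR against rDM (1.29).

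When each library or donor was left out, with both priors of limma (the trend fits were added after the data were seen), the ranges were 1.79 to 2.59, 1.83 to 2.82 and 1.87 to 2.88 in rDM 0% Ros against rDM 0% Ins, 1.41 to 2.59, 1.29 to 2.37 and 0.83 to 2.48 in rDM 0% HC/PR against rDM 0% Ins, 1.02 to 1.75, 1.09 to 2.05 and 0.91 to 1.5 in rDM 0% Ros against rDM, and -1.21 to -0.37, -1.52 to -0.08 and -1.67 to -0.64 in rDM 0% Ins against rDM. In rDM 0% HC/PR against rDM, COL1A1 ranged from 0.78 to 1.55 and COL1A2 from 0.64 to 1.56.

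The number of genes called moved by over 1.5 times with the 13 other settings: from 2 in the main test to between 0 and 309 in rDM 0% Ins against rDM, from 210 to between 22 and 618 in rDM 0% Ros against rDM, from 1 to between 0 and 24 in rDM 0% HC/PR against rDM, from 73 to between 0 and 242 in rDM 0% Ros against rDM 0% Ins, from 9 to between 0 and 229 in rDM 0% HC/PR against rDM 0% Ins, and from 91 to between 0 and 321 in rDM 0% HC/PR against rDM 0% Ros. When a library or donor was left out of the main test, it lay between 0 and 4, 0 and 194, 0 and 1, 0 and 72, 0 and 12, and 0 and 85 in these comparisons, and in rDM 0% Ros against rDM it was 17 without donor A, 45 without donor B and 0 without donor C. Uncorrected reads summed per gene were not run, since transcripts could not be assigned to genes here. Because batch correction had used all libraries together, the libraries tested are not fully independent. Depth gave a counting interval of 288 to 427 CPM at the lowest collagen read count, 104 after batch correction.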

Other observations

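The spread of the collagens between libraries was wide for genes of their abundance. After medium and donor, the residual SD of log2(CPM + 1) was 0.604 for COL1A1, 0.699 for COL1A2 and 0.751 for COL3A1, whereas its median was 0.227 over the 315 genes that averaged 500 CPM or more and 0.717 over all 9267 genes tested. Of the 315 genes, 22, 17 and 13 had a larger residual SD than COL1A1, COL1A2 and COL3A1.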
